A study of Mus musculus with 480 samples.

Results

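Scgb1a1 is the textbook marker of club cells, the secretory cells of the small airways, yet it was read in every one of 88 alveolar type 2 (AT2) cells that had been labelled through the surfactant gene Sftpc. The lowest of these were traces, with 1 read of Scgb1a1 in each of wells A8 and B9. Whether so few reads stem from the cell itself was not tested. Its level spread over more than 4 orders of magnitude, a range whose top rests on 1 cell. The 18 cells with the most of it were set against the 35 cells with the least. These 53 cells were chosen by their own Scgb1a1 level: 1000 CPM or more for the high group and under 100 CPM for the low group, where CPM is a gene's reads scaled to 1000000 reads of the cell. They came from 480 single cells, 160 from each of 3 mouse reporter lines. All carried the genotype Sftpc-DreER;R26-RSR-tdtomato (the Sftpc-TD line) and had the annotated sub-type AT2. In this line a tamoxifen-inducible Dre recombinase is driven by Sftpc and turns on a red reporter. By design it marks lung epithelial cells that had expressed Sftpc, and the purity of the sort was not tested. Of the line's AT2 cells, 89 were on plate 5 and 60 on plate 4. Plate 5 is used here, since it held 0 cells of another line, and 88 of its AT2 cells had 100000 reads or more. No age, sex or animal was named, so the line counted as 1 sample, and cells of 1 line are not replicates: values below are descriptions with no p-value, and whether they hold in other animals was not tested.

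AT2 cells make and recycle surfactant, store it in lamellar bodies, synthesize the lipids it needs, and carry major histocompatibility complex (MHC) class II proteins on their surface. Club cells secrete Scgb1a1 and its relatives Scgb3a1 and Scgb3a2 and hold detoxifying enzymes such as the cytochrome P450 Cyp2f2. Bronchioalveolar stem cells (BASCs), found where the terminal airway meets the alveolus, are defined by holding both Sftpc and Scgb1a1. Whether Scgb1a1 in an AT2 cell comes with the rest of the club programme is therefore the question that the 2 groups address.

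The Scgb1a1 levels had no gap at either limit. Scgb1a1 (ENSMUSG00000024653; GRCm38 chromosome 19, 9083636 to 9087958, minus strand) ranged from 0.714 to 99.7 CPM in the low cells, with a median of 13.96. In the high cells the lowest was 1029, the median 1776 and the highest 50094 CPM. The 35 cells between the limits ran from 104.7 to 997 CPM, so the cells just outside each limit lay next to those just inside. Within 2-fold of the high limit were 19 cells, 8 under it and 11 at or above it, and within 2-fold of the low limit were 21, of which 7 were low cells. One high cell stood apart: it had 50094 CPM where the next had 7045, and it held 59.4% of the group's Scgb1a1 reads but 6.73% of all its reads. The other AT2 cells in its row of the plate had a median of 183 CPM (10 cells) and those in its column 43.6 CPM (4 cells), against 168 CPM in the other 73. Results that turn on this cell are given with and without it.

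**Figure D1:**
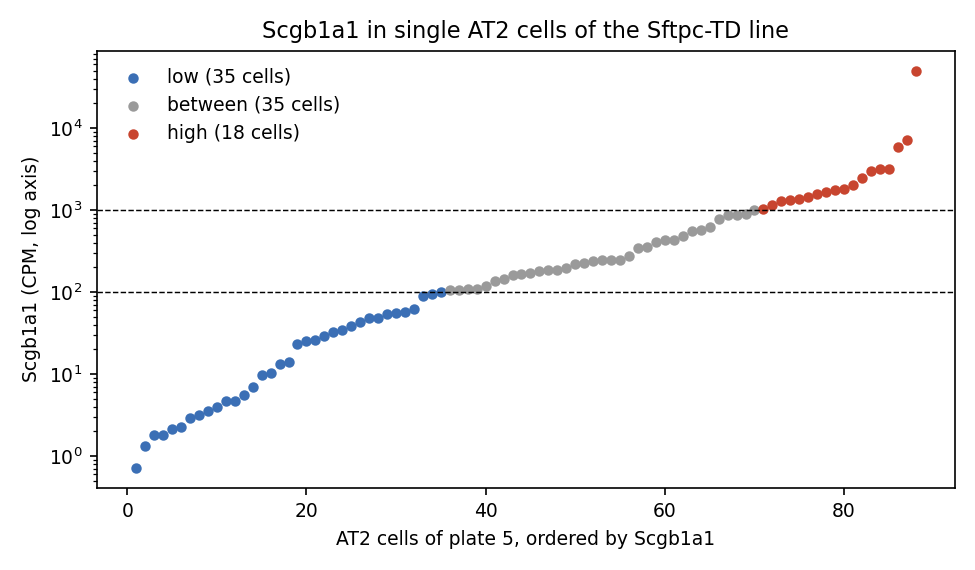
Scgb1a1 per AT2 cell of plate 5 (CPM, log axis), 1 point per cell, ordered by level; the dashed lines mark 100 and 1000 CPM. The level climbs without a break from 0.714 CPM to 7045 CPM, and 1 cell at 50094 CPM lies above all others.

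Depth and cell quality lay close together in the 2 groups. High cells had 617372 to 2883022 reads (median 1684463), and low cells 378986 to 3781974 (median 1348235). After thinning each cell to 100000 reads, the median number of genes was 3160 in high and 3089 in low cells, and mitochondrial genes took a median of 3.51% and 3.59% of reads. High cells sat in 8 of 8 rows and 11 of 12 columns of the plate. Low cells were absent from column 1, where the AT2 cell with the least Scgb1a1 had 220 CPM. The part of plate position in the groups was not tested. Sftpc, which the label rests on, ran from 126549 to 228171 CPM in high cells and from 56797 to 228457 CPM in low cells. Lyz2, the lysozyme of AT2 cells, ran from 44320 to 143575 CPM in high cells and from 2272 to 146349 CPM in low cells, so the weakest AT2 levels were in low cells. The 60 AT2 cells of the same line on plate 4 serve as a second look: 17 had 1000 CPM of Scgb1a1 or more. Only 3 cells there were under 100 CPM, and the lowest had 56.2 CPM, so 18 cells under 200 CPM were used as the low group, a limit chosen after these values were seen. Plate 4 also held 32 cells of the Scgb1a1-TD line (Scgba1a1-CreER;R26-tdtomato), which label through Scgb1a1; the part of that neighbourhood in the higher floor was not tested.

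Among cells annotated AT2, high cells had little of the rest of the club programme. Cells of this plate annotated as BASCs were left out of both groups. Those with 45101 and 130015 CPM of Scgb1a1 had 3971 and 2733 CPM of Cyp2f2. The part of the annotation in this result was not tested. Cyp2f2, which metabolizes naphthalene in club cells, had 0 to 1062 CPM in high cells with a median of 0.569, and 0 to 643 CPM in low cells with a median of 2.15. The cells between the limits had the highest median, at 20.3 CPM. Many of them sat in columns 1 to 4 of the plate, where all but well D3 had 5.53 CPM or more. In later columns their level ran from 0 CPM in several to 335 CPM (well E9). The part of position in this median was not tested. A read of Cyp2f2 was found in 11 of 18 high and 22 of 35 low cells. With reads summed over the cells of a group, the level was 79.4 CPM (95% Poisson interval 76.2 to 82.6) in high and 56.2 CPM (54.2 to 58.3) in low cells; these intervals cover counting error only, since reads were amplified by PCR and carry no molecular identifiers. The cell with the most Scgb1a1 supplied most of the Cyp2f2: without it the high group fell to 8.42 CPM, below the low group.

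Scgb3a2, a secretoglobin of the airways, was at 0 in most cells of either group. Its median was 0 CPM in both groups, its highest value 60.03 CPM in high and 12.3 CPM in low cells, and 4 of 18 and 5 of 35 cells held a read. These reads followed plate position. Apart from the top cell, the high cells with a read were in columns 1, 3 and 4 (wells C1, E3 and F4). The low cells above 1.07 CPM were in columns 3 and 4 (wells C3, G3 and B4). The part of position in these values was not tested. The summed level was 5.70 CPM in high and 0.743 CPM in low cells, and 1.78 CPM in high cells without the top cell. On plate 4 both genes were read in nearly all cells of either group. There Cyp2f2 had a median of 26.7 CPM in high and 20.8 CPM in low cells, and Scgb3a2 10.8 and 15.3 CPM.

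The 58 club cells of plate 3 were of the Scgb1a1-TD line, so line and plate cannot be told apart from cell type here. Against them, the high group lay 0.0707% of the way from the low AT2 level to the club level of Cyp2f2 (32742 CPM). Without its top cell the share was -0.146%. For Scgb3a2 the share was 0.0231%, or 0.00482% without that cell. Over the 10 genes other than Scgb1a1 with 1000 CPM or more in club cells and at least 20-fold over low AT2 cells, the share ran from -2.27% (Gstm2) to 0.222% (Cp, ceruloplasmin). For Scgb1a1 it was 2.38%, or 1.03% without the top cell; that value was fixed by how the groups were chosen and is no yardstick for the other genes. Reg3g, Bpifb1 and Bpifa1, defence proteins of the airway surface, had 0 reads in both AT2 groups. The top cell itself lay 21.1% of the way from the low AT2 level to the club level in Scgb1a1, 3.08% in Cyp2f2 and 0.277% in Scgb3a2.

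**Figure D2:**
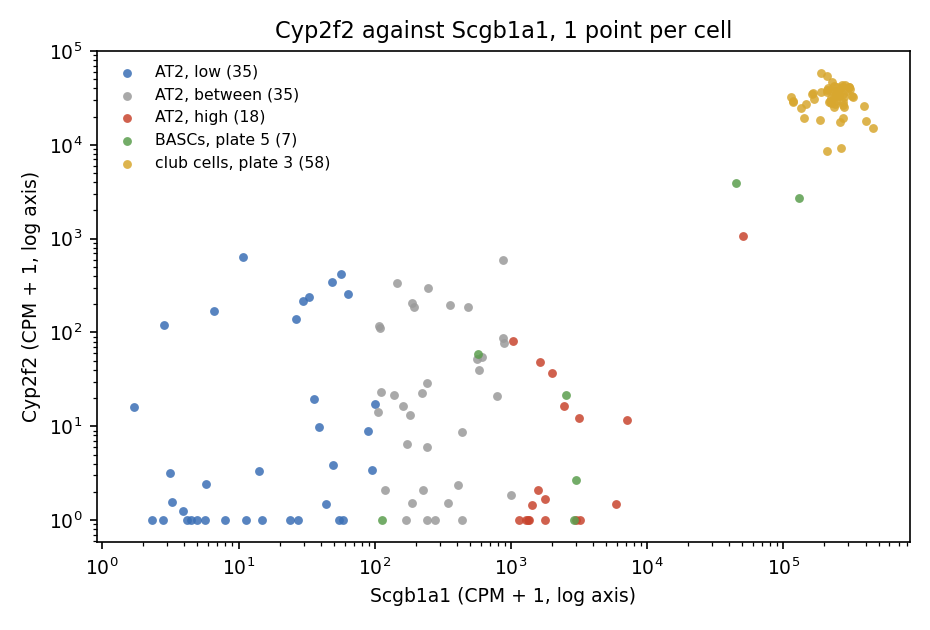
Cyp2f2 against Scgb1a1 (CPM with 1 added, both axes log), 1 point per cell, for AT2 cells and BASCs of plate 5 and club cells of plate 3. The club cells were of the Scgb1a1-TD line. Among AT2 cells Cyp2f2 is spread from 0 upward in the low, between and high cells. The highest median (20.3 CPM) is between the limits, where many cells sat in columns 1 to 4 of the plate. The high cell at 50094 CPM of Scgb1a1 has 1062 CPM of Cyp2f2 and lies towards the club cells.

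Of 22 club markers on a list, 12 passed a filter of 5 CPM or more in the mean of the 2 groups. A gene was called where the summed level with 1 CPM added differed 2-fold or more between groups, and still did when the cell with the most of that gene in the higher group was left out. By that rule 589 of 9345 genes (6.3%) were called higher and 1447 (15.5%) lower in high cells. Since the high group has about 1 cell for every 2 low cells, leaving out a cell weighs more on it. Of the club markers 2 were called higher, Cckar, a cholecystokinin receptor, and Pon1, a paraoxonase that AT2 cells also had, and 0 lower. The list's median log2 ratio was -0.07, the same as the -0.07 over all genes tested. On plate 4 the list's median was -0.44, with Gsto1 called lower and 0 called higher. Per cell, the sum over the list had a median of 15304 CPM in high and 17832 CPM in low cells. The medians on plate 4 were 13059.5 and 18687.6 CPM. Neither Cckar nor Pon1 was called on plate 4, where Pon1 had 269 CPM in high and 277 CPM in low cells.

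A second measure was added after these values were seen, because many genes were read in only a few cells. It is the share of all pairs of 1 high and 1 low cell in which the high cell has more, with ties counted as 50%; 50% means no tendency. It was taken for the 3557 genes read in 50% or more of the 53 cells. At 70% or more of the 630 pairs lay 49 genes (1.38%), and at 30% or fewer lay 39 (1.1%). On plate 4, over 306 pairs, 153 of the 3557 (4.3%) and 64 (1.8%) did. Of the 49 genes, 39 were above 50% on plate 4 (79.6%, against 59.3% of all 3557), and 11 again reached 70%. Of the 39, 25 were below 50%, and 3 again fell to 30% or fewer: H2-Aa, H2-Ab1 and Cd74.

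These 3 genes make the MHC class II molecule that presents peptides to helper T cells: H2-Aa and H2-Ab1 encode the chains of I-A, and Cd74 the invariant chain that guards the groove until peptide is loaded. All were lower in Scgb1a1-high cells, on both plates. The genes of I-A and I-E lie together on chromosome 17. MHC class II promoters are known for an inverted CCAAT element bound by NF-Y, searched here as the letters CTGATTGG. The 120 bases before the annotated start are shown for H2-Aa, which was lower on both plates, and for H2-Eb1, the I-E beta chain, which was lower mainly on plate 5. They are from RefSeq on GRCm38.p6, at chr17:34287824-34287943 (minus strand) and chr17:34305747-34305866 (plus strand), with the box in capitals.
H2-Aa: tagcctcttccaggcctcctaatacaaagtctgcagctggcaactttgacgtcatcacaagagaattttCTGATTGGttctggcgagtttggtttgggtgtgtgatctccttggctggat
H2-Eb1: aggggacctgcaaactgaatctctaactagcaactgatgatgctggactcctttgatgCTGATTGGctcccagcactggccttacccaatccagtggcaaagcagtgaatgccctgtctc
These letters, searched on both strands of the 250 bases before the start, were found in 3.83% of 32851 promoters. Of 5 promoters of 4 class II genes listed there, 2 held it. Those of H2-DMa and H2-DMb1 did not. H2-Ab1, Cd74 and Ciita were not looked at. A match is a description of the letters, not a measured binding site.

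H2-Aa (ENSMUSG00000036594; chromosome 17, 34282744 to 34287823, minus strand) ran from 1.08 to 652 CPM in high cells with a median of 218, and from 3.22 to 1686 CPM in low cells with a median of 562. The groups overlapped, but 15 of 35 low cells lay above every high cell, and 1 of 18 high cells lay above the low median. Summed, it had 264 CPM (258 to 269.5) in high and 661 CPM (654 to 668) in low cells, 2.5-fold less, and the high cell had more in 18.9% of pairs. On plate 4 the medians were 75.7 and 393 CPM and the pair share 24.2%.

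H2-Ab1 (ENSMUSG00000073421; chromosome 17, 34257689 to 34269419, plus strand) ran from 1.97 to 811 CPM in high cells with a median of 183, and from 4.35 to 1847 CPM in low cells with a median of 530. Of 35 low cells, 11 lay above every high cell, and 30 above the high median. The summed level was 2.89-fold lower in high cells on plate 5 and 3.01-fold lower on plate 4, with pair shares of 20.8% and 19.9%.

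Cd74 was the most abundant of the list. It ran from 79.2 to 5296 CPM in high cells (median 1684) and from 279 to 7084 CPM in low cells (median 2722). Its summed level was 1.87-fold lower in high cells, short of the 2-fold call, and 2.12-fold lower on plate 4, where 2 of 17 high cells lay above the low median.

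H2-Eb1, at 3.15-fold lower, had the largest summed fold of the list on plate 5, though not the lowest pair share. Its median was 0.489 CPM in high cells (0 to 357) and 148.5 CPM in low cells (0 to 1015), with a pair share of 21.9%. On plate 4 the summed levels were 111.4 and 139.5 CPM and the pair share 43.6%. Among the loading factors, H2-DMb1 was called lower, at 24.02 against 58.1 CPM, while H2-DMa had 96.1 CPM in high and 78.1 CPM in low cells. The log2 ratio of H2-DMa turned from 0.30 to -2.18 with 2000 CPM as the high limit. In all, 4 of the 6 class II genes tested of a list of 7 were called lower, against 15.5% of all genes, with a median log2 ratio of -1.28. On plate 4 the list's median was -1.16 with 1 of 7 called (H2-Ab1), against 10.8%. Of 7 MHC class I and antigen processing genes tested, 0 were called, with a median of -0.18.

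The cells between the limits were near the low cells in H2-Aa, H2-Ab1 and H2-Eb1. Their median was 501 CPM of H2-Aa, 478 CPM of H2-Ab1 and 147.001 CPM of H2-Eb1. In Cd74 they had a median of 2353 CPM, between the 2722 CPM of low and the 1684 CPM of high cells. Over all 88 AT2 cells of plate 5 the rank correlation with Scgb1a1 was -0.45 for H2-Aa, -0.43 for H2-Ab1 and -0.35 for Cd74, and over the 60 of plate 4 it was -0.38, -0.48 and -0.44. These are descriptions over cells of 1 line that share plates and depth.

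**Figure D3:**
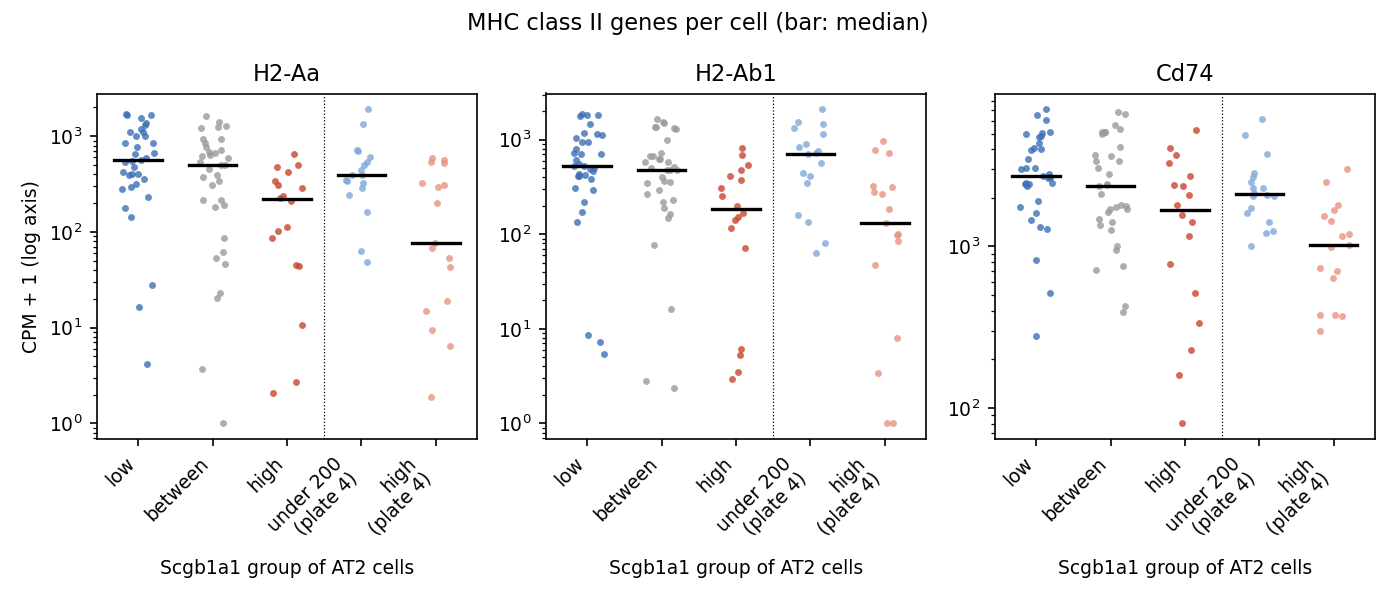
H2-Aa, H2-Ab1 and Cd74 per AT2 cell (CPM with 1 added, log axis) by Scgb1a1 group on plate 5 (low, between, high) and plate 4 (under 200 CPM, high); bars are medians. The high cells sit lower on both plates, with overlap; H2-Aa medians are 562, 501 and 218 CPM on plate 5.

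MHC class II is also carried by leukocytes, so their markers are given beside it. Of the 7 pan-leukocyte genes, Ptprc (the pan-leukocyte CD45) had 0 reads in high cells and 0.0391 CPM in low cells, and 4 of 7 were at 0 in each group. The list's sum ran from 0 to 357 CPM in high cells and from 0 to 465 CPM in low cells. Of its 7 genes 2 passed the filter, neither was called, and they went opposite ways: the log2 ratio was -0.50 for Lcp1, the actin bundler L-plastin, and 4.52 for Coro1a, an actin binder of leukocytes, a median of 2.01. Coro1a had reads in 3 of 18 high and 3 of 35 low cells, with 1 high cell at 355 CPM and a highest low value of 2.08 CPM. Lcp1 had a median of 6.35 CPM in high and 68.6 CPM in low cells, and on plate 4 of 6.36 and 133.7 CPM, where 0 of 17 high cells lay above the low median; its pair share was 39.8% on plate 5 and 13.6% on plate 4. Without the cells with 50 CPM or more of the list, which left 9 high and 17 low cells, the log2 ratio of H2-Aa was -1.89 and that of H2-Ab1 -1.85, but that of H2-Eb1 was -0.64. Mpeg1, a pore protein of macrophages, was called higher in high cells, with reads in 6 of 18 cells and 1 cell at 686 CPM. It was the 1 of 3 tested alveolar macrophage markers called.

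The 11 genes at 70% or more of pairs on both plates had mixed roles. Dbi, which binds long-chain acyl-CoA, was the gene highest by pairs on plate 5, and the high cell had more in 88.6% of pairs on each plate. Dbi (ENSMUSG00000026385; chromosome 1, 120113280 to 120121078, minus strand) ran from 208 to 1533 CPM in high cells with a median of 537, and from 44 to 952 CPM in low cells with a median of 152. All 18 high cells lay above the low median, and 3 of 35 low cells above the high median. Summed, it had 590 CPM (581 to 599) in high and 230 CPM (226 to 235) in low cells, 2.55-fold more, and 2.70-fold more on plate 4. The cells between the limits had a median of 183 CPM, near the low cells. Its rank correlation with Scgb1a1 was 0.46 over 88 cells and 0.52 over 60.

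Fabp5, a fatty acid binding protein that is itself an AT2 marker, ran from 182 to 1128 CPM in high cells (median 549) and from 0.877 to 1016 CPM in low cells (median 251). After thinning, all 18 high cells had a read, and 29 of 35 low cells did. The summed level was 2.01-fold higher, which without its top cell no longer reached 2-fold, and 3.16-fold higher on plate 4; the pair share was 78.7% and 78.8%.

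Scd1, the desaturase that makes monounsaturated fatty acids, ran from 3899 to 20066 CPM in high cells (median 8337) and from 1251 to 21405 CPM in low cells (median 3433). All 18 high cells lay above the low median, and the summed level was 1.64-fold higher on each plate. Npc2, which moves cholesterol out of lysosomes, had medians of 7895 and 4541 CPM, and on plate 4 of 9582 and 4678 CPM, where 0 of 18 low cells lay above the high median. Lrg1, a secreted leucine-rich glycoprotein, had medians of 978 and 108.6 CPM, although 2 of 35 low cells, the highest at 5533 CPM, lay above every high cell. The others of the 11 were Lss, Gpx1 (glutathione peroxidase), Ergic3, H2afj, Tmem256 and the mitochondrial mt-Nd2. Fabp5 and Scd1 are on a list of fatty acid and phosphatidylcholine synthesis genes, of which 0 of 12 tested were called in either direction, with a median log2 ratio of 0.08.

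**Figure D4:**
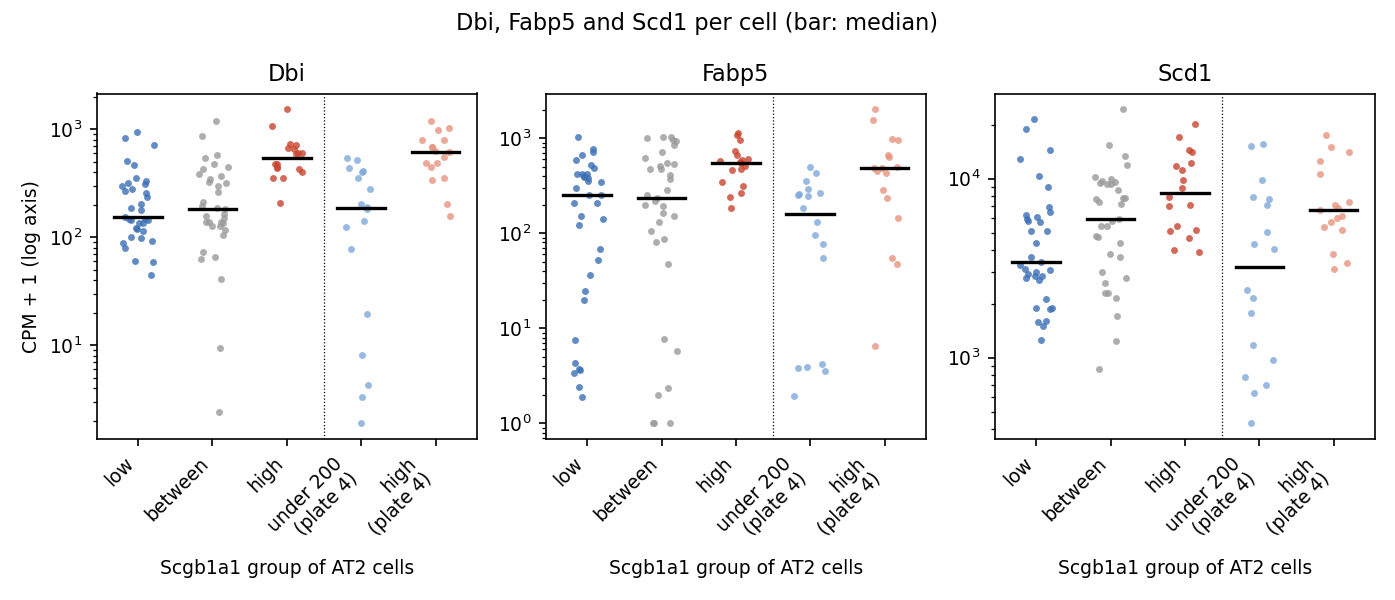
Dbi, Fabp5 and Scd1 per AT2 cell (CPM with 1 added, log axis) by Scgb1a1 group on plates 5 and 4; bars are medians. High cells sit higher on both plates and the groups overlap; Dbi medians are 152, 183 and 537 CPM in low, between and high cells of plate 5.

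Of 15 sterol synthesis genes tested of 16, 2 were called higher (Mvd, mevalonate decarboxylase, and Sqle, squalene epoxidase), against 6.3% of all genes, and 0 lower. Their median log2 ratio was 0.64, against -0.07 over all genes. On plate 4, 5 of 15 were called higher, against 10.1% of all genes, and the median was 1.04; Mvd was called on both plates and Sqle was not. Lss, which closes squalene into lanosterol, had a median of 23.2 CPM in high cells and 0.911 CPM in low cells, with pair shares of 71.6% and 74.3%. Mvd was read in 7 of 18 high cells and reached 373 CPM, and after thinning 7 high and 2 low cells had a read.

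The AT2 programme itself was close in the 2 groups. On plate 5, 0 of 18 AT2 markers were called in either direction, and the median log2 ratio was 0.20. On plate 4, 1 was called higher (Fabp5) and 1 lower (Lyz1), with a median of 0.10. Sftpc had 169973 CPM summed in high and 146248 CPM in low cells, and Lyz2 74028 and 71286 CPM. Sftpa1, a surfactant collectin, leaned down on both plates: medians were 51069 and 66693 CPM, and the high cell had more in 31.4% of pairs on plate 5 and 22.5% on plate 4. Ctsh, the cathepsin that processes surfactant protein precursors, had medians of 1302 CPM in high and 1875 CPM in low cells, with pair shares of 24.9% and 33.7%. Fabp5, Chil1 and Il33 were the 3 AT2 markers at 70% or more of pairs on plate 5, but on plate 4 Chil1 was at 53.6% and Il33 at 48.4%.

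AT1 markers were lower in high cells by the call rule, and 1 low cell carried most of that. Of 13 tested of 14, 4 were called lower, against 15.5% of all genes: Pdpn, the podoplanin of AT1 membranes, Cav1 of caveolae, Igfbp2, and Gprc5a. Pdpn had 0 reads in high cells, where the limit that 3 reads would give was 0.0994 CPM, and 51.01 CPM in low cells, of which 9 of 35 had a read. The list summed to 52544 CPM in 1 low cell, with 22885 CPM of Ager, the receptor that marks AT1 cells, beside 87747 CPM of Sftpc; the next low cell had 9500 CPM, and high cells had 1576 to 5951 CPM. Left out after its values were seen, that cell took the calls from 4 to 1 (Gprc5a), the genes that passed the filter from 13 to 11, and the list's median from -0.96 to -0.43. The 3 genes no longer called kept their direction, with log2 ratios of -3.76 for Pdpn, -2.94 for Cav1 and -2.02 for Igfbp2. On plate 4, 0 of 13 were called, and both groups there held 1 cell above 10000 CPM. Cav2, of the caveolin family but not on the list, was at 22.2% of pairs on plate 5 and 44.8% on plate 4.

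The genes with the largest fold were of another kind. They are given among the called genes with 50 CPM or more in the higher group and a read in 25% or more of its cells after thinning. That leaves out genes such as Mpeg1, at a log2 ratio of 5.66. Of the 20 largest, 10 each way, 13 had the same sign on plate 4 and 7 were again 2-fold or more. The 10 highest were Tmem154, Dtna, Kif21b, Mvd, Rnf135, Zfp711, Zfp426, Eva1a, Ccdc50 and Ghr, the growth hormone receptor. Tmem154, first among them, had 90.3 CPM in high and 2.05 CPM in low cells, but was read in 8 of 18 and 11 of 35 cells, with a median of 0 in both, and on plate 4 in 7 of 17 and 6 of 18 cells at 63.2 and 48.8 CPM. Rnf135, a ubiquitin ligase, had 62.9 against 3.54 CPM on plate 5 and 0.332 against 26.7 CPM on plate 4. The 10 lowest were Zfp68, Tmco3, Dnajc10, Ehd4, Phf11d, Rela, Cpsf6, Slc27a1, Rnf213 and Nbea. Rela, the p65 subunit of NF-kB, had 1.86 CPM in high and 68.6 CPM in low cells, but 49.1 and 24.4 CPM on plate 4. Over all 589 genes called higher, 51.95% had a log2 ratio above 0 on plate 4, against 48.03% of all 9345, and over the 1447 called lower it was 44.99%. On plate 4 itself, 926 of 9155 genes (10.1%) were called higher and 993 (10.8%) lower.

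**Figure D5:**
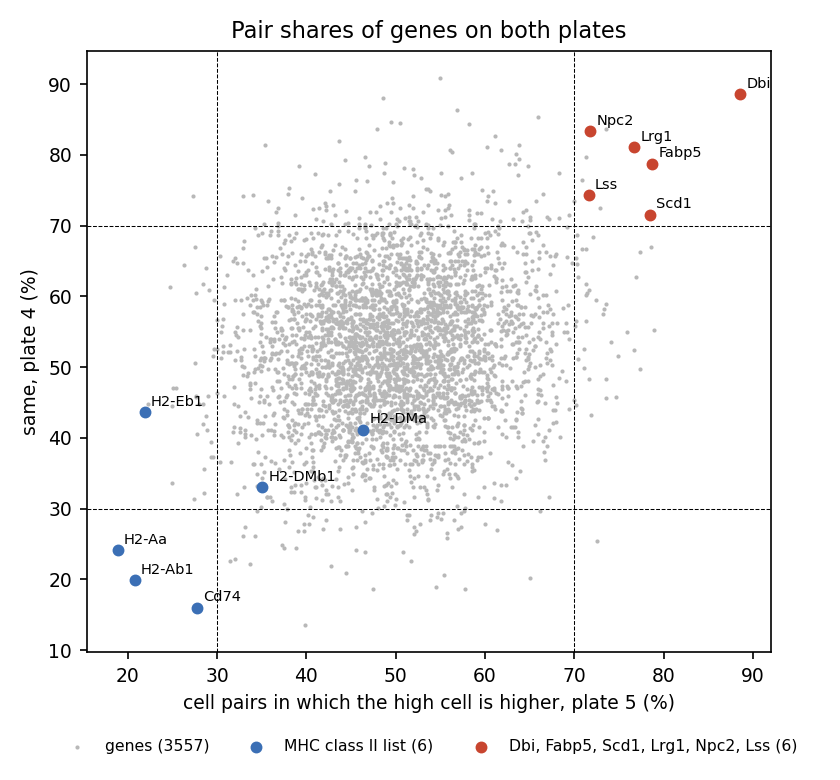
Share of high-low cell pairs in which the high cell has more, plate 5 (x axis, %) against plate 4 (y axis, %), 1 point per gene for 3557 genes; dashed lines mark 30% and 70%. Dbi lies at 88.6% on each plate, H2-Aa, H2-Ab1 and Cd74 lie in the lower left corner, and most genes lie between the lines on both.

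Single genes of other lists also stood out. Pon1 and Epas1, the hypoxia-regulated transcription factor HIF-2 alpha, were among the highest genes by pairs on plate 5, at 78.9% and 78.6%. Epas1 had medians of 1031 CPM in high and 382 CPM in low cells, and was at 66.99% on plate 4, while Pon1 was at 55.2% there. Notch2, a Notch receptor, was at 77.3% and 66.3% but low, with medians of 18.6 and 5.42 CPM. Hes1, a Notch target, was at 73.2% and 57.5%. Hdc, which makes histamine, was called higher on plate 5, at 357 against 91.7 CPM, and had 138.7 against 35.95 CPM on plate 4; it comes from a list of genes that led the double-labelled BASCs in earlier work on these files, so its place there is no independent evidence. Of the 9 genes of that list tested, 2 were called higher (Hdc and Rabep1) and 2 lower (Ly6i and Myc), with a median log2 ratio of 0.40. On plate 4, Hdc and Heatr1 were called higher and Myc lower. Cd44, the hyaluronan receptor on progenitor cell lists, was called lower, with medians of 6.70 and 83.1 CPM, and was at 27.5% and 31.4% of pairs. Itga6, another surface gene of that list, was called lower on plate 5 but had 35.2 CPM in high and 3 CPM in low cells on plate 4.

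The remaining lists gave few calls, to be read against the 6.3% of all genes called higher and the 15.5% called lower. Basal, neuroendocrine and erythroid markers had 0 genes above the filter. Ciliated markers had 0 of 3 called, lineage transcription factors 0 of 10, mitochondrially encoded genes 0 of 9 and proliferation genes 0 of 2. Interferon response genes had 2 of 5 called lower, Oasl2 and Bst2, and immediate early and heat shock genes 1 of 15, Hspa1a. Endothelial markers had 1 of 3 called higher, Pecam1, and mesenchymal markers 1 of 1 called lower, Col1a2. Xenobiotic metabolism genes had 2 of 16 called lower, Gstm2 and Gsta4, both glutathione transferases. Airway secretory genes had 2 of 5 called lower, Slpi and Clu. Wnt genes had 1 of 5 called higher, Fzd5, Notch genes 1 of 6 called lower, Notch1, and FGF genes 1 of 7, Fgf1. Clock genes had 1 of 12 called lower, Cry1, and unfolded protein response genes 1 of 11, Pdia4.

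Plate 5 also held 7 cells of the same line annotated as BASCs, which had 112.7 to 130015 CPM of Scgb1a1. That range overlapped the AT2 cells: 5 of the 7 lay at 3005 CPM or under. Against the low AT2 cells, a BASC had more Dbi in 87.8% of pairs and more Lrg1 in 81.6%, and less H2-Aa in most, with more in 31.02%. The BASC of well A11 raised that H2-Aa share: it had 4185 CPM, above every low cell, beside 1928 CPM of Ptprc. Of the 7, 2 had more than 1000 CPM of Cyp2f2, at 3971 and 2733 CPM, and these had 45101 and 130015 CPM of Scgb1a1.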

How the data were processed

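Per the labels, single sorted lung cells were lysed, reverse transcribed, amplified by PCR over the whole transcript and made into Nextera XT libraries. Per the submitters' processing notes, HISAT2, HTSeq and GRCm38 were used; the version of each tool was not given in the sources used here. Values are the authors' deposited raw read count per gene and cell, unscaled and without molecular identifiers, for 53379 gene identifiers, of which 53274 had a GENCODE M21 symbol. Its header is 1 name short, so each name was read as that of the count column after the identifiers; 0 columns were unmatched and 0 cells had identical counts. HTSeq counting without stated strand may mix overlapping genes, and near-identical copies (the H2, Lyz and Cyp2 families) may share reads.

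CPM was taken over all gene reads of a cell, and group levels over summed reads, so deeper cells weigh more. Ratios are log2 with 1 CPM added. Genes named by fold were the 10 called with the largest ratio each way, with 50 CPM in the higher group and a read, after thinning, in 25% of its cells; mitochondrial, ribosomal and unnamed genes were left out. The 31 lists, the groups and the members were chosen with earlier results of these data known. No doublet caller was run and no test between groups. Counts simulated with counting error alone were run through the call rule. They cannot show how often it calls genes that vary from cell to cell. Python 3.11.15, numpy 2.4.6, pandas 2.3.3 and scipy 1.17.1 were used. The alternatives were other limits, scalings, filters, left-out cells and plate 4.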

Additional observations from a re-analysis of the deposited data

Results flagged for a closer look

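Among the 7 BASCs of plate 5, 10 genes were looked at for a cell far from the others, and 6 had such a cell. A chance rate of about 1 such group in 20 holds only for normally distributed values of independent cells. These CPM were skewed, with Scgb1a1 from 112.7 to 130015 CPM, and the cells share 1 line, so that rate does not apply. Cells of 1 group are also not independent across genes. The Scgb1a1 of 1 BASC was 130015 CPM. Scgb3a2 reached 66.8 CPM in another BASC, of 149599 reads, and Fabp5 1652 CPM in the BASC with the most of it. One further BASC stood apart in H2-Aa (4185 CPM), H2-Ab1 (9582 CPM) and Cd74 (12675 CPM). It also had 1928 CPM of Ptprc and 6395 CPM of the pan-leukocyte list, which the other 6 had at 0 and at 0 to 631 CPM; the part of these markers in its class II level was not tested.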

How the results depend on the processing

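In all 17 settings were run, of which single genes had 14; 2 were added after the values were seen, plate 4 with a low limit of 200 CPM and the low cell with the most AT1 markers left out. The shares of the club level were not recomputed with median-of-ratios scaling, 10 CPM added or other filters. A value moved where it changed by over 1.5-fold. The counts of genes called rest on the rule: 203 higher and 673 lower with 10 CPM added, 74 and 150 with a filter at 50 CPM, and 1703 higher by the summed ratio alone. With 2000 CPM as the high limit (7 cells) 2440 were lower. Plate 4 with 3 low cells gave 2885 higher and 375 lower, and with the 200 CPM limit 926 higher. The AT2 median stayed within 0.10 and 0.27. The club median was -1.01 without cells of 50 CPM of leukocyte markers and -0.86 on plate 4 with 3 low cells.

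The share of the club level of Cyp2f2 was -0.0149% as a mean over cells, 0.343% with the 2000 CPM limit, 0.0426% with low cells under 200 CPM, -0.146% without the top cell, -0.0883% without leukocyte-marker cells, and -0.357% and 0.0389% on plate 4. That of Scgb3a2 was 0.0379% and 0.0496% with high limits of 500 and 2000 CPM, 0.00482% without the top cell, 0.00427% without leukocyte-marker cells and 0.00951% on plate 4 with 3 low cells.

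Of 59 genes, 46 had a log2 ratio of 1 or more in size. Of these, 3 turned sign on plate 5: Zfp426 (-2.37 with the 2000 CPM limit), Cckar (-0.36 without leukocyte-marker cells) and Coro1a (-0.13 and -0.18 in these settings). Among smaller ratios 4 did: Cyp2f2 (-0.094 as a mean over cells, -2.60 without the top cell, -1.47 without leukocyte-marker cells), H2-DMa (-0.0094 with the 500 CPM limit, -2.18 with 2000 CPM, -2.19 without leukocyte-marker cells), Lyz2 (-0.047 without the top cell) and Notch2 (-0.10 with 2000 CPM). On plate 4 with 3 low cells the sign of larger ratios turned for Rnf135 (-7.19), Ccdc50 (-0.86), Zfp68 (4.55), Tmco3 (4.54), Phf11d (0.35), Rnf213 (5.26), Cckar (-3.64), Pon1 (-1.68), Cav1 (7.89), Cav2 (5.48), Pdpn (4.79), Igfbp2 (3.61) and Itga6 (4.05). With the 200 CPM limit it turned for Dtna (-1.31), Rnf135 (-4.38), Zfp711 (-0.077), Ccdc50 (-0.78), Zfp68 (0.19), Rela (0.98), Cpsf6 (1.15), Cckar (-1.17), Pon1 (-0.041), Cav1 (0.96) and Itga6 (3.18). Of smaller ratios, Cyp2f2 (-1.27) turned with 3 low cells and H2-DMa with both limits (-1.20 and -0.51). H2-Aa, H2-Ab1, Cd74, Dbi, Fabp5 and Scd1 kept their sign in each of the 14 settings run for single genes. The pair shares of 10 genes were recomputed in 8 plate 5 settings, also after the values were seen: H2-Aa stayed at 15.7% to 20.7%, H2-Ab1 at 7.76% to 25.6%, Cd74 at 7.76% to 29.4% and Dbi at 76.5% to 91.8%, while Npc2, Lrg1 and Lss fell to 66.04%, 68.8% and 67.2%. The causes were not tested. No paired analysis was possible because no animal was named that could link cells of the groups.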
